A study of Mus musculus with 30 samples.

Results

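The genes described here are 10 genes of the mesenchymal transition: the transcription factors Zeb1, Zeb2, Twist1, Twist2, Snai1 and Snai2, the cadherins Cdh1, Cdh2 and Cdh11, and vimentin (Vim). They were chosen by name, as 10 of the 54532 features in each count file. Messenger RNA was measured by 3′ sequencing in 30 tumours of YUMM1.7, a mouse melanoma line on the C57BL/6 background, grown under the skin. The tumours came from 5 lines named 2646TN, 2646R, 14559TN, 14559R and 13TN, each grown untreated or under RAFi/MEKi, inhibitors of RAF and MEK, with 3 tumours in each of the 10 groups. 2646TN with 2646R and 14559TN with 14559R form clonal pairs, each line being isolated with the CaTCH barcode system. A difference among these paired lines is a difference between single clonal lines. The titles call 13TN Depleted, so it may not be a single clone, and the labels do not spell out TN or R. Tumours were dissociated with collagenase, and live cells with strong GFP signal were sorted after staining for CD45. Agents, doses and treatment times are not given in the sources used here.

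ZEB, TWIST and SNAI proteins are DNA-binding factors that drive the epithelial-to-mesenchymal transition, in which cells lose E-cadherin, gain N-cadherin and vimentin, and become motile. ZEB and SNAI factors are zinc-finger proteins that bind E-box sequences and repress the E-cadherin gene Cdh1, while TWIST factors are basic helix-loop-helix proteins. Pigment cells arise from the neural crest and use these factors in development, and in human melanoma ZEB2 and SNAI2 are known from differentiated cells, with ZEB1 and TWIST1 known from dedifferentiated, invasive ones.

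Promoter windows of RefSeq on GRCm38.p6, 250 bases before to 50 bases after a transcript start, were found for 5 of the 10 genes: Zeb2, Twist1, Twist2, Snai1 and Vim. Of these, the 4 shown are from genes with at least 1 called difference below. Capitals mark the E-box CAGGTG, in either orientation, the sequence bound by ZEB and SNAI factors, and the AP-1 site TGANTCA, which reads alike on both strands and is bound by Fos and Jun factors. The Zeb2 window is the one at the most downstream of its 4 starts, on the minus strand.
Zeb2, chr2:45110228-45110527, minus strand: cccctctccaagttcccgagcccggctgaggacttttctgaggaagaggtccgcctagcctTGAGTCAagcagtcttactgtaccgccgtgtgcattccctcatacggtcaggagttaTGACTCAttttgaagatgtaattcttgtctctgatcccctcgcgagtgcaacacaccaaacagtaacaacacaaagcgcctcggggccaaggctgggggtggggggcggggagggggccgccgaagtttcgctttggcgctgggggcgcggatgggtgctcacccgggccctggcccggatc
Twist2, chr1:91801211-91801510, plus strand: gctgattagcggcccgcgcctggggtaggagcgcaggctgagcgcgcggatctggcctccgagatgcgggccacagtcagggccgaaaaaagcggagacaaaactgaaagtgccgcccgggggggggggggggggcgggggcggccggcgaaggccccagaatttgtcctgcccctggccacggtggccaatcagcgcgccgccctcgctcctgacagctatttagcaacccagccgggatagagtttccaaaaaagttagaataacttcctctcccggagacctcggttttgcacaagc
Snai1, chr2:167537945-167538244, plus strand: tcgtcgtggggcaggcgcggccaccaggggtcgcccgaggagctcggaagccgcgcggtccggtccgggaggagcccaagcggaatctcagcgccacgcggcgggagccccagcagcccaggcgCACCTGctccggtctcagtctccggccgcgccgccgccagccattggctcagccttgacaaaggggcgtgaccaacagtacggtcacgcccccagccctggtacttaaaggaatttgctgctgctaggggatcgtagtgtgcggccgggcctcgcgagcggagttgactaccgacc
Vim, chr2:13574061-13574360, plus strand: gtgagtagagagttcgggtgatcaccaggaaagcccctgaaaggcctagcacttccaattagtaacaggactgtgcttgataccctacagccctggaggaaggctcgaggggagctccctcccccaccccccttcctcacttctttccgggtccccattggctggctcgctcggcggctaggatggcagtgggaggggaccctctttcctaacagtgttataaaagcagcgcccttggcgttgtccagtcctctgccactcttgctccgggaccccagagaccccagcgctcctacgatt
The Snai1 window held 1 E-box, 126 bases before the start (position -126), and no other window of these genes held one. The E-box was found in 20.2% of all 32851 windows of 300 bases. The Zeb2 window held 2 AP-1 matches (positions -189 and -132), a motif found in 7.81% of all windows. The 3 other Zeb2 windows and those of Twist1, Twist2, Snai1 and Vim held none. These matches describe the letters and not binding.

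Libraries held 3022801 to 5278453 counts, and within a group 2 libraries had a Spearman correlation over genes of 0.962 to 0.985. Counts per 1000000 (CPM) were scaled with TMM factors, and since the library kit reads 3′ ends, CPM compares 1 gene across groups and not 1 gene with another. A count of 0 allows a level of up to 0.568 to 0.992 CPM, depending on the library. That limit covers counting error only. Of 14 pigment cell markers, the enzymes Tyr, Tyrp1 and Dct had 0 counts in all 30 libraries, as did Gpr143 and Oca2. Only 3 passed the filter on low counts. As group means, Pax3 stood at 130 to 286 CPM, Mitf at 13.9 to 64.4 CPM and Sox10 at 0.0696 to 19.5 CPM. No other pigment cell marker had a group mean above the 1.48 CPM of Pmel. In sorted pools of cells, fewer cells expressing a gene and less RNA per cell cannot be told apart.

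Of the 10 genes, 8 passed the filter on low counts. All of these but Twist2 were counted in all 30 libraries. Twist2 was counted in 28, with group means of only 0.767 CPM in untreated and 0.517 CPM in treated 2646TN. Cdh1 and Cdh11 were at or near 0 throughout. The counts of Cdh1, which encodes E-cadherin, summed to 50 over the 30 libraries. It was counted in 18 libraries, at most 7 times, and its highest group mean was 0.978 CPM in untreated 2646R. Cdh11, a cadherin of mesenchymal and bone-forming cells, summed to 6 counts in 4 libraries. In 14559TN, Cdh1 had 0 counts in each of the 3 untreated tumours and 4, 6 and 1 counts in the treated ones. Neither gene was tested.

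**Figure D1:**
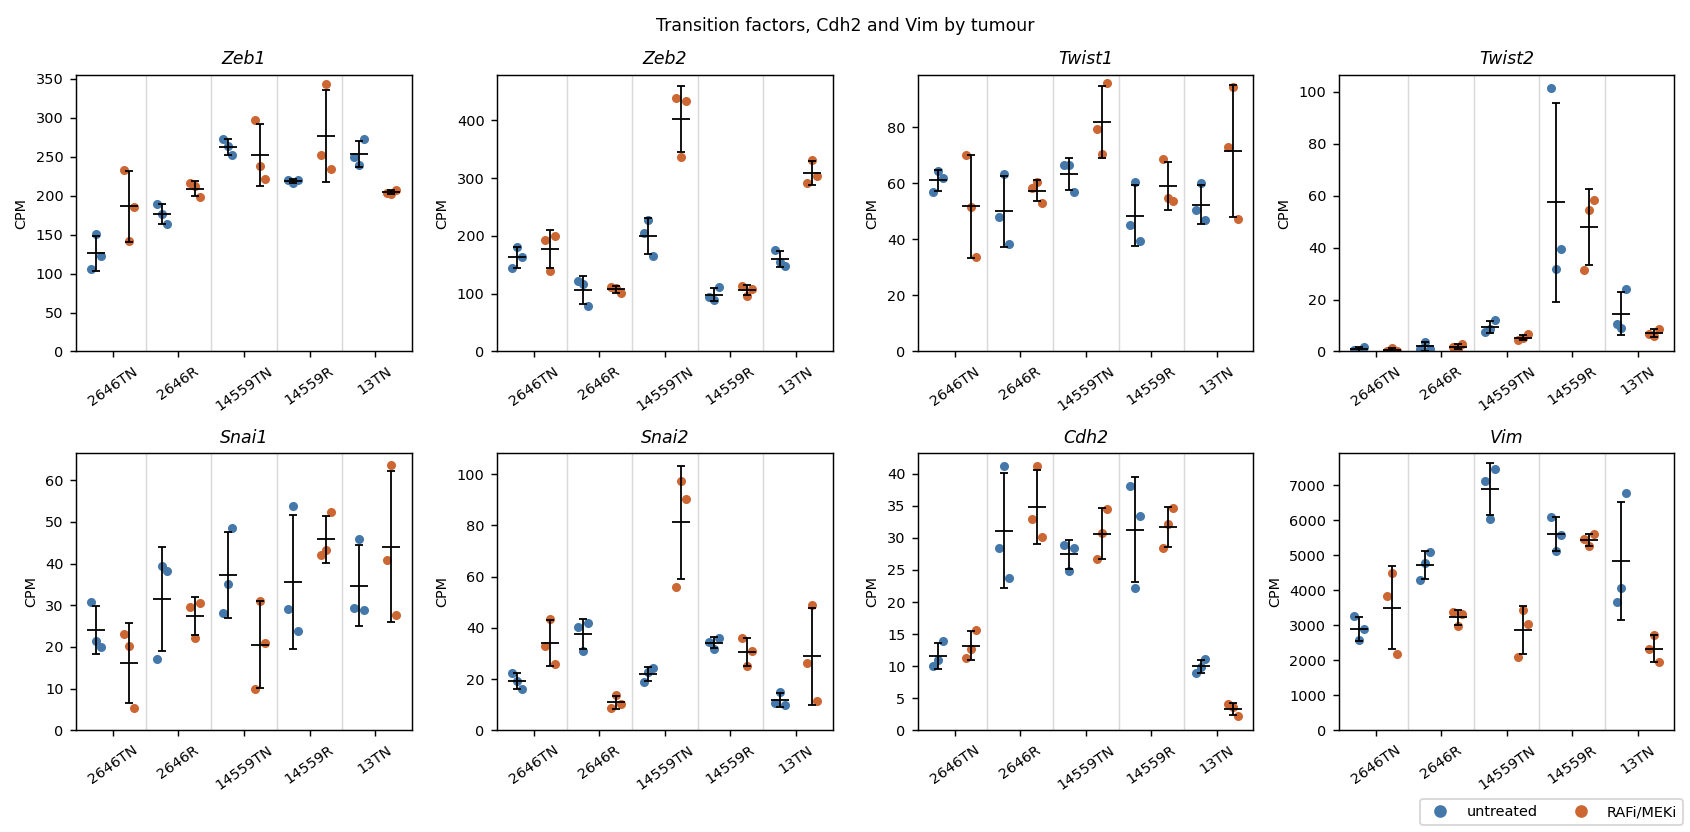
Level of the 8 tested genes in each tumour, in CPM on linear axes from 0, by line, with untreated tumours in blue and RAFi/MEKi tumours in orange; bars are mean ± SD of 3 tumours. Zeb2 and Snai2 stand highest in treated 14559TN, at means of 403 and 81.2 CPM, and Twist2 is highest in 14559R.

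Zeb2 rose under RAFi/MEKi in 14559TN and 13TN and was lower in each R line than in its TN partner, with and without drug. Zeb2 lies on the minus strand of chromosome 2 at chr2:44983632-45117395 (GRCm38), where the microRNA gene Mir5129 overlaps its exons on the same strand. The untreated 14559TN tumours had 205, 228 and 166 CPM of Zeb2. The treated ones had 439, 337 and 433 CPM. All 3 treated tumours stood above all 3 untreated ones, a 2.02-fold rise (log2 1.01 ± 0.15 SE, edgeR quasi-likelihood test, adjusted p = 5.52e-06). In 13TN, Zeb2 went from 176, 155 and 148 CPM untreated to 291, 331 and 303 CPM treated, again with no overlap. The rise there was 1.93-fold (log2 0.95 ± 0.15, edgeR adjusted p = 1.35e-05).

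In the other lines the drug left no called change in Zeb2. Its mean was 163 ± 18.4 CPM (SD, n = 3) untreated and 178 ± 32.8 CPM treated in 2646TN, 107 ± 23.6 and 108 ± 6.18 CPM in 2646R, and 98.2 ± 11.6 and 106 ± 8.92 CPM in 14559R. These pairs of groups overlapped. The rise in 14559TN and the small change in 14559R differed by -0.90 ± 0.22 on the log2 scale (14559R minus 14559TN, edgeR adjusted p = 0.00527). The difference of responses in the 2646 pair was -0.11 ± 0.22 and was not called (edgeR adjusted p = 0.852).

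Between paired lines, Zeb2 was lower in the R line in all 4 comparisons. Untreated 2646R was at 0.655 times untreated 2646TN (log2 -0.61 ± 0.16, edgeR adjusted p = 0.00242), and treated 2646R at 0.606 times treated 2646TN (log2 -0.72 ± 0.16, adjusted p = 0.00105). Untreated 14559R was at 0.493 times untreated 14559TN (log2 -1.02 ± 0.16, edgeR adjusted p = 1.07e-05). Treated 14559R was at 0.263 times treated 14559TN (log2 -1.92 ± 0.16, edgeR adjusted p = 2.31e-11). The ranges of the 3 tumours did not overlap in any of these comparisons. In order of mean, treated 14559TN and treated 13TN stood apart from each other and from the rest. Untreated 14559TN, both 2646TN groups and untreated 13TN overlapped with their neighbours in the middle, and the 4 R groups overlapped at the bottom, apart from untreated 13TN above them.

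Zeb1, the other ZEB factor (chr18:5591860-5775467, plus strand), varied less and followed another order. Zeb1 was lowest in untreated 2646TN, with 106, 150 and 122 CPM against 233, 141 and 185 CPM in treated 2646TN. The 2 groups overlapped, and the 1.48-fold rise was called (log2 0.56 ± 0.15, edgeR adjusted p = 0.0263). That call was lost when only the compared groups were fitted (edgeR adjusted p = 0.164). It was lost without untreated replicate 1 (0.191) or 3 (0.0842), and without treated replicate 1 (0.228). No other line had a called change in Zeb1: the log2 values were 0.24 ± 0.15 in 2646R, -0.06 ± 0.15 in 14559TN, 0.34 ± 0.15 in 14559R and -0.31 ± 0.15 in 13TN.

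Among untreated lines, Zeb1 in 2646TN (126 ± 22.3 CPM) was below 13TN (254 ± 16.8 CPM) and 14559TN (263 ± 10.2 CPM), with no overlap. The log2 differences were -1.01 ± 0.15 from 13TN (edgeR adjusted p = 1.18e-05) and -1.06 ± 0.15 from 14559TN (adjusted p = 3.5e-06). Untreated 2646R (177 ± 13.1 CPM) was above 2646TN by 0.49 ± 0.15 (edgeR adjusted p = 0.0111). This last call was lost without 2646TN replicate 1 (0.0811) or 2646R replicate 1 (0.0508). In the 14559 pair Zeb1 was not called, at log2 -0.26 ± 0.15 untreated and 0.13 ± 0.15 treated (14559R minus 14559TN). From treated 14559R (277 CPM) down, the 4 highest groups overlapped one with the next. Neighbours in that order did not overlap between treated 14559TN (252 CPM) and untreated 14559R (219 CPM), nor between untreated 2646R (177 CPM) and untreated 2646TN, the lowest mean, which overlapped with treated 2646TN.

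The number of Zeb1 counts per Zeb2 count, taken within a library, needs no scaling between libraries. In 14559TN it was 1.33, 1.16 and 1.52 untreated and 0.678, 0.705 and 0.512 treated. In 13TN it was 1.42, 1.55 and 1.84 untreated and 0.700, 0.609 and 0.685 treated. In both lines every treated tumour was below every untreated one. Since 1 gene is not compared with another, a ratio of 1 has no meaning of its own. In 2646TN the ratio went the other way, from 0.733, 0.828 and 0.750 untreated to 1.21, 1.01 and 0.925 treated. In the 12 R tumours the ratio ran from 1.51 to 3.57, above every TN partner tumour under the same treatment. The ratios are a description and were not tested.

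**Figure D2:**
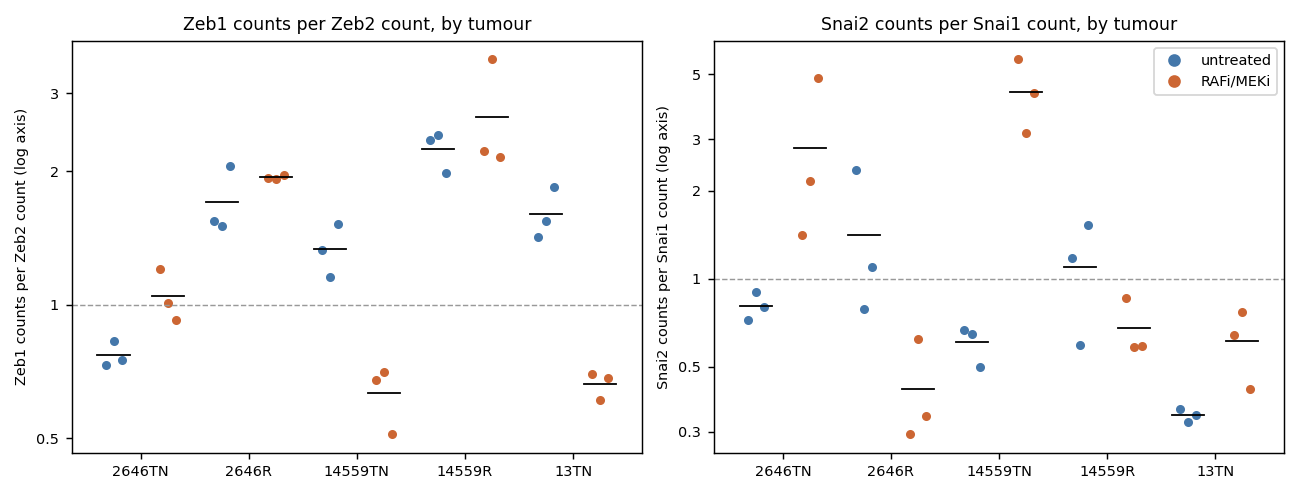
Zeb1 counts per Zeb2 count (left) and Snai2 counts per Snai1 count (right) in each tumour, on log axes, by line, untreated in blue and RAFi/MEKi in orange; black lines are means of 3 tumours and the dashed line marks 1. Treated 14559TN and 13TN tumours lie below the untreated ones of their line on the left, and treated 14559TN lies highest on the right, at a mean of 4.37.

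Twist2 divided the lines, while Twist1 was called in no comparison. Twist2 (chr1:91801461-91848028, plus strand), a factor of dermal and bone-forming cells, had 101, 31.7 and 39.3 CPM in untreated 14559R and 31.3, 54.5 and 58.3 CPM in treated 14559R. In 14559TN it had 7.61, 8.60 and 12.1 CPM untreated and 4.54, 5.01 and 6.57 CPM treated. Every 14559R tumour was above every 14559TN tumour. The difference was 6.05-fold untreated (log2 2.60 ± 0.47, edgeR adjusted p = 2.22e-04) and 8.91-fold treated (log2 3.16 ± 0.50, adjusted p = 1.22e-05). The untreated log2 value was 1.90 without 14559R replicate 1, the tumour at 101 CPM (edgeR adjusted p = 0.00326).

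In the 2646 pair Twist2 was near the detection limit. Untreated 2646TN summed to 10 counts over 3 libraries (0.767 ± 0.928 CPM), treated 2646TN to 5, untreated 2646R to 25 and treated 2646R to 24. No difference within this pair was called. Untreated 13TN held 14.5 ± 8.21 CPM of Twist2, which put untreated 2646TN lower by a log2 difference of -4.03 ± 0.69 (edgeR adjusted p = 1.65e-04). Against untreated 14559TN the difference was -3.43 ± 0.72 (edgeR adjusted p = 0.00109). Since 8 of the 10 counts came from 2646TN replicate 3, these sizes are uncertain, and without it they were -5.54 and -4.94. No line had a called response of Twist2, though the 3 treated tumours stood below the 3 untreated ones in 14559TN and in 13TN (log2 -0.82 ± 0.54 and -1.0 ± 0.50, edgeR adjusted p = 0.271 and 0.131). In order of level, the 14559R groups came first, then the 13TN and 14559TN groups, then the 4 groups of the 2646 pair, with a gap between these 3 sets and overlap between neighbours within each.

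Twist1 (chr12:33957671-33959829, plus strand), which patterns the neural crest and mesoderm, was called in none of the 14 comparisons. Its group means ran from 48.4 ± 10.9 CPM in untreated 14559R to 81.8 ± 12.8 CPM in treated 14559TN. Every group overlapped with the next in that order. Its log2 responses ran from -0.24 ± 0.22 in 2646TN to 0.45 ± 0.22 in 13TN (edgeR adjusted p = 0.123). The test for any difference among the 5 untreated lines gave an edgeR adjusted p of 0.385 for Twist1.

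Snai2, which encodes SLUG, moved in opposite directions under RAFi/MEKi: it rose in 14559TN and 13TN and fell in 2646R. Snai2 (chr16:14705852-14709385, plus strand) takes part in pigment cell development in the mouse embryo. In 14559TN it had 18.8, 22.7 and 24.2 CPM untreated and 55.9, 97.3 and 90.3 CPM treated. The 3 treated tumours were the highest of all 30, and the rise was 3.71-fold (log2 1.89 ± 0.31, edgeR adjusted p = 2.52e-05). In 2646R it had 40.3, 31.0 and 41.8 CPM untreated and 8.68, 13.8 and 10.4 CPM treated. The groups were apart, and treated tumours were at 0.291 times the untreated level (log2 -1.78 ± 0.33, edgeR adjusted p = 2.38e-04).

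In 13TN, Snai2 had 10.5, 14.9 and 9.85 CPM untreated and 26.2, 49.0 and 11.6 CPM treated. One treated tumour lay within the untreated range, and the log2 rise was 1.30 ± 0.33 (edgeR adjusted p = 0.00316). Without treated replicate 2, the tumour at 49.0 CPM, the value was 0.69 and was not called (edgeR adjusted p = 0.0907), nor was it when only the 13TN groups were fitted (0.0916). In 2646TN, Snai2 went from 19.2 ± 3.11 to 34.0 ± 8.94 CPM, with no overlap but no call (log2 0.82 ± 0.32, edgeR adjusted p = 0.153). In 14559R it was 34.2 ± 2.14 and 30.7 ± 5.45 CPM, a log2 change of -0.15 ± 0.30.

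The responses of Snai2 differed within both pairs. The difference was -2.60 ± 0.45 on the log2 scale for 2646R minus 2646TN (edgeR adjusted p = 9.54e-04) and -2.05 ± 0.43 for 14559R minus 14559TN (adjusted p = 0.00175). Treated R tumours were below treated TN tumours, at log2 -1.63 ± 0.33 in the 2646 pair (edgeR adjusted p = 6.99e-04) and -1.40 ± 0.30 in the 14559 pair (adjusted p = 2.82e-04). Untreated, the sign was the other way: 2646R was above 2646TN by 0.98 ± 0.31 (edgeR adjusted p = 0.0145), a call lost without 2646TN replicate 3 (0.0714). Untreated 14559R minus 14559TN was 0.64 ± 0.31 and not called (adjusted p = 0.137). In the order of means only treated 14559TN stood apart at the top, and untreated 13TN and treated 2646R had the lowest means, with treated 13TN overlapping both.

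Snai1, the SNAIL gene (chr2:167538195-167542814, plus strand), showed no called response in any line. Its group means ran from 16.2 ± 9.55 CPM in treated 2646TN to 45.8 ± 5.63 CPM in treated 14559R, and each group overlapped with the next. The single call was treated 14559R (41.9, 43.2 and 52.3 CPM) above treated 14559TN (9.94, 30.9 and 20.9 CPM), with no overlap. The log2 difference was 1.13 ± 0.44 (edgeR adjusted p = 0.0369). It was lost on leaving out any 1 of 5 of these 6 tumours, with an edgeR adjusted p of up to 0.160. Snai2 counts per Snai1 count were 0.667, 0.649 and 0.500 in untreated 14559TN and 5.63, 3.15 and 4.33 in treated 14559TN. In 2646R they were 2.36, 0.789 and 1.09 untreated and 0.294, 0.621 and 0.339 treated. The groups were apart in both lines, in opposite directions.

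Cdh2, which encodes N-cadherin (chr18:16588877-16809246, minus strand), was called in 4 of the 7 comparisons of lines and in 1 of the 5 drug responses. In untreated tumours 13TN had 9.01, 9.92 and 11.1 CPM, 2646TN 10.1, 10.9 and 13.9 CPM, and 14559TN 28.9, 24.9 and 28.5 CPM. 2646R had 28.5, 41.2 and 23.8 CPM and 14559R 38.1, 22.2 and 33.5 CPM. The 13TN and 2646TN tumours overlapped at the low level, and the other 3 lines overlapped at the high level. The log2 difference was 1.41 ± 0.23 for untreated 2646R minus 2646TN (edgeR adjusted p = 1.5e-05), and 1.46 ± 0.24 for 14559TN minus 13TN (adjusted p = 5.22e-05). It was -1.23 ± 0.23 for 2646TN minus 14559TN (edgeR adjusted p = 2.11e-04). Under the drug the 2646 pair kept its difference, at 1.39 ± 0.23 (edgeR adjusted p = 4.54e-05). In the 14559 pair the differences were 0.18 ± 0.22 untreated and 0.05 ± 0.22 treated, neither called.

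The one called response of Cdh2 was a fall in 13TN. Treated 13TN tumours had 4.06, 3.63 and 2.27 CPM, all below the untreated ones, at 0.337 times their level (log2 -1.57 ± 0.29, edgeR adjusted p = 8.42e-05). In the other 4 lines the log2 responses were 0.02 to 0.18, each with an SE of 0.21 to 0.25. The 5 responses differed from one another (edgeR adjusted p = 0.0019).

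The other cadherins and catenins were counted in a list of 23 genes, 10 of them tested. Under RAFi/MEKi none of the 10 was called higher in any line, while 4 fell in 2646R, 3 in 14559TN and 5 in 13TN and none was called in 2646TN or 14559R. Of all tested genes 19.9% were called in 2646R, 28.4% in 14559TN, 31.0% in 13TN, 3.94% in 2646TN and 0.196% in 14559R, in either direction. The median log2 response of the 10 ran from -0.54 in 2646R to -0.07 in 14559R, against -0.00246 to 0.0121 for all tested genes. Cdh6, a cadherin of the neural crest and kidney, fell in 2646R from 198 ± 31.3 to 12.1 ± 3.85 CPM (log2 -4.03 ± 0.37, edgeR adjusted p = 4.2e-08). It fell in 13TN from 16.4 ± 2.68 to 1.50 ± 0.911 CPM (log2 -3.44 ± 0.53, adjusted p = 1.79e-05), and in 14559TN from 11.6 ± 1.10 to 2.14 ± 0.608 CPM. Cdh13, a cadherin anchored in the membrane by a lipid, fell in 14559TN from 872 ± 31.2 to 329 ± 40.5 CPM, in 2646R from 174 ± 21.9 to 69.4 ± 15.6 CPM and in 13TN from 577 ± 142 to 107 ± 19.8 CPM. Cdh6 in untreated 2646R was above untreated 2646TN (7.52 ± 3.96 CPM) by 4.71 ± 0.39 on the log2 scale (edgeR adjusted p = 2.79e-09).

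Jup, the gene of plakoglobin, which links cadherins to the cytoskeleton, was higher in untreated R than in untreated TN tumours of each pair. It had 28.5 ± 3.66 CPM in untreated 14559R against 2.00 ± 1.09 CPM in 14559TN (log2 3.83 ± 0.45, edgeR adjusted p = 1.59e-07). In untreated 2646R it had 24.8 ± 2.67 CPM against 10.4 ± 2.38 CPM in 2646TN (log2 1.25 ± 0.36, adjusted p = 0.00702). Ctnnb1, the beta-catenin gene, ran from 614 to 902 CPM over the 10 group means.

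**Figure D3:**
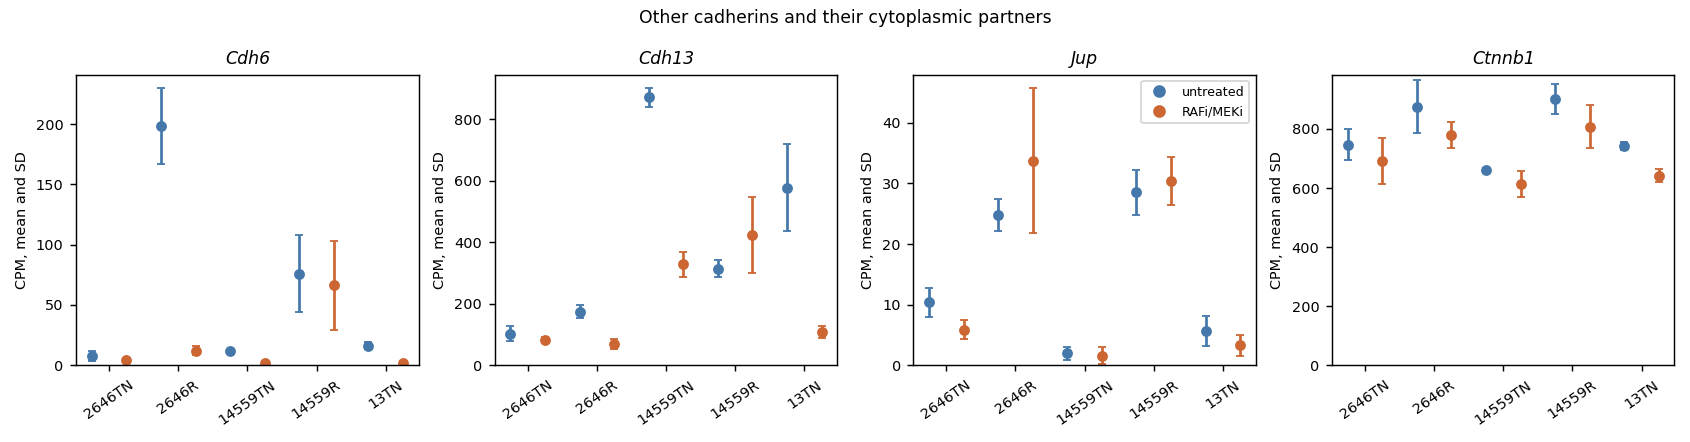
Cdh6, Cdh13, Jup and Ctnnb1 in CPM on linear axes from 0, by line; points are group means and bars are SD of 3 tumours, untreated in blue and RAFi/MEKi in orange. Cdh6 is highest in untreated 2646R (198 CPM), Cdh13 in untreated 14559TN (872 CPM), and Jup is low in 14559TN and 13TN.

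Vim, the intermediate filament protein of mesenchymal cells (chr2:13573927-13582826, plus strand), fell under RAFi/MEKi in 14559TN and 13TN. In 14559TN it had 7130, 6047 and 7467 CPM untreated and 2102, 3448 and 3038 CPM treated. The groups were apart, with treated tumours at 0.416 times the untreated level (log2 -1.27 ± 0.21, edgeR adjusted p = 4.11e-05). In 13TN it had 3677, 4068 and 6779 CPM untreated and 2328, 2718 and 1946 CPM treated, also apart (log2 -1.05 ± 0.21, adjusted p = 3.09e-04). These are the 2 lines in which Zeb2 and Snai2 were called higher, though the Snai2 call in 13TN was lost under 2 alternatives. Snai2 also went from 19.2 to 34.0 CPM in 2646TN, with no overlap and no call. Vim was not called there.

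In 2646R, Vim had 4301, 4772 and 5100 CPM untreated and 3376, 2972 and 3322 CPM treated, apart but not called (log2 -0.55 ± 0.21, edgeR adjusted p = 0.0617). In 14559R it was 5605 ± 487 and 5436 ± 167 CPM, and in 2646TN 2906 ± 342 and 3504 ± 1187 CPM. The responses in the 14559 pair differed by 1.22 ± 0.30 on the log2 scale (14559R minus 14559TN, edgeR adjusted p = 0.00632). Among untreated lines Vim was higher in 2646R than in 2646TN by 0.70 ± 0.21 (edgeR adjusted p = 0.00985), and lower in 2646TN than in 14559TN by a log2 difference of -1.24 ± 0.21 (adjusted p = 7.84e-05). Untreated 2646TN was also below 13TN (log2 -0.74 ± 0.21, edgeR adjusted p = 0.0152). That call was lost without 2646TN replicate 2 (0.0701) or 3 (0.0506), or without 13TN replicate 3 (0.214). Treated 14559R was above treated 14559TN by 0.93 ± 0.21 (edgeR adjusted p = 6.4e-04). Every group overlapped with the next in the order of Vim means, from untreated 14559TN (6882 CPM) to treated 13TN (2330 CPM).

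Of 21 other intermediate filament genes 9 were tested. In 14559TN 4 fell and in 13TN 5 fell under the drug, with none higher in either. Of all tested genes 28.4% were called in 14559TN and 31.0% in 13TN, in either direction. The median log2 response of the 9 ran from -1.91 in 13TN to 0.20 in 2646TN. The nuclear lamin gene Lmna fell in 14559TN from 1171 ± 58.9 to 486 ± 45.3 CPM (log2 -1.27 ± 0.19, edgeR adjusted p = 4.63e-06), and rose in 2646TN from 792 ± 186 to 1319 ± 160 CPM (log2 0.74 ± 0.18, adjusted p = 0.0174). Lmnb1, another lamin, rose in 2646R from 105 ± 24.0 to 222 ± 32.2 CPM and fell in 13TN from 110.0 ± 16.2 to 23.9 ± 4.84 CPM. The neurofilament gene Nefl stood at 120 ± 62.7 CPM in untreated 14559R against 0.814 ± 0.272 CPM in untreated 14559TN. The keratin gene Krt18 was at 14.4 ± 5.45 and 0.475 ± 0.462 CPM in the same groups.

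Counted by comparison, the called genes among the 8 tested were as follows. Under RAFi/MEKi 1 was called in 2646TN (Zeb1), where 3.94% of all 13286 tested genes were called, and 1 in 2646R (Snai2), where 19.9% were. In 14559TN 3 were called, against 28.4% of all genes, and in 13TN 4, against 31.0%. In 14559R none of the 8 was called by edgeR, with 1 at an unadjusted p under 0.05 and none called by DESeq2, and only 0.196% of all genes were called there. R against TN gave 5 calls untreated and 3 treated in the 2646 pair, where 36.6% and 20.1% of all genes were called. In the 14559 pair it gave 2 untreated and 5 treated, where 24.1% and 49.4% of all genes were called.

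Between untreated TN lines, 3 were called in 2646TN against 13TN (16.2% of all genes), 1 in 14559TN against 13TN (11.2%) and 4 in 2646TN against 14559TN (18.9%). For the difference of responses 1 was called in the 2646 pair (4.15% of all genes) and 3 in the 14559 pair (12.0%). Asked together, 6 of the 8 differed among the 5 untreated lines, where 56.6% of all genes did, and 5 differed among the 5 responses, where 28.8% did. The 6 were Zeb1, Zeb2, Twist2, Snai2, Cdh2 and Vim, and the 5 were Zeb1, Zeb2, Snai2, Cdh2 and Vim. The median log2 value of the 8 ran from -0.84 to 0.59 over the 14 comparisons, and that of all genes from -0.01 to 0.03. Comparisons that share a group of tumours are not independent of each other. All p-values rest on the spread between tumours within a group, estimated over the 10 groups in 1 fit, and not between lines.

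**Figure D4:**
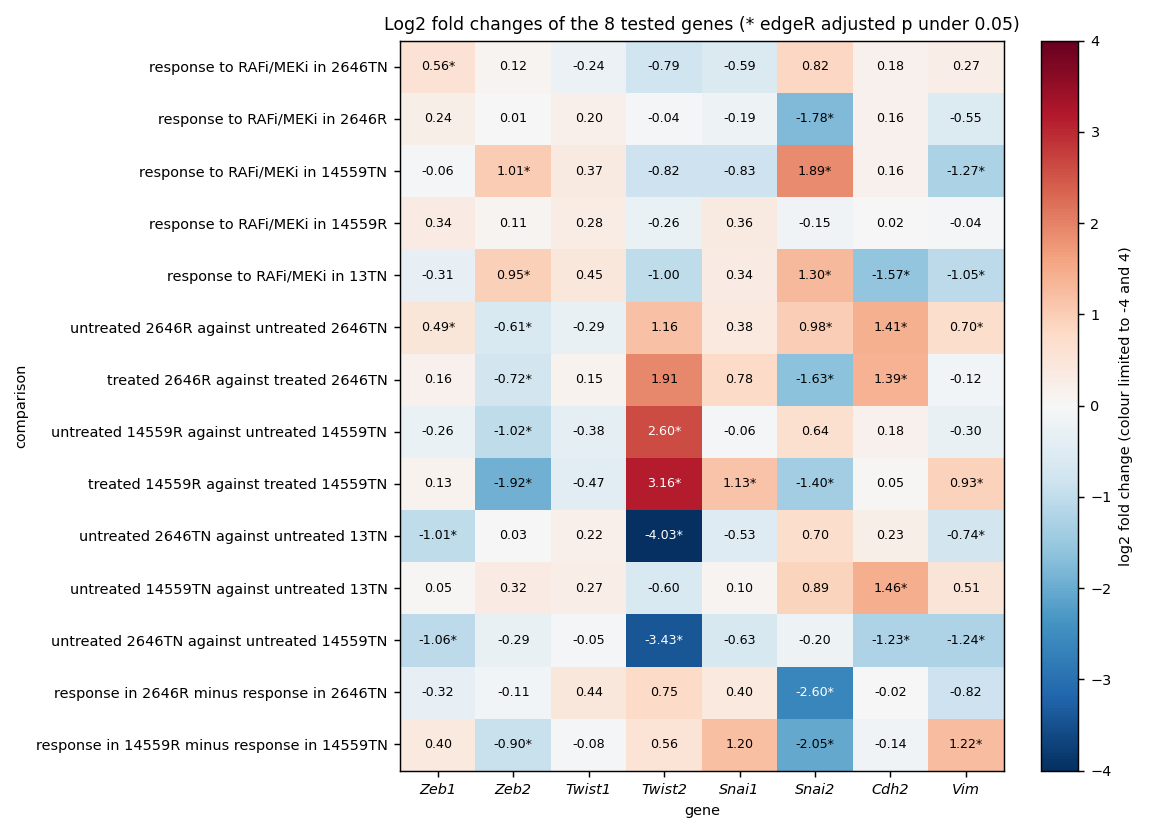
Log2 fold changes of the 8 tested genes (columns) in the 14 comparisons (lines), first group minus second, red for higher and blue for lower, with a star where the edgeR adjusted p was under 0.05. Zeb2 is lower in all 4 comparisons of R with TN, Twist1 carries no star, and Snai2 has both signs among its responses.

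Set against the spread between tumours, Cdh2, Zeb2 and Twist2 varied most among groups. The SD between the 10 group means was 3.96 times the pooled SD within groups for Cdh2, 3.46 times for Zeb2 and 2.91 times for Twist2. For Snai2, Vim and Zeb1 it was 1.96, 1.81 and 1.81 times. For Snai1 and Twist1 it was 0.879 and 0.801 times. A mean of 3 tumours varies less than a single tumour, so a ratio of 1 is not the value without group differences.

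**Figure D5:**
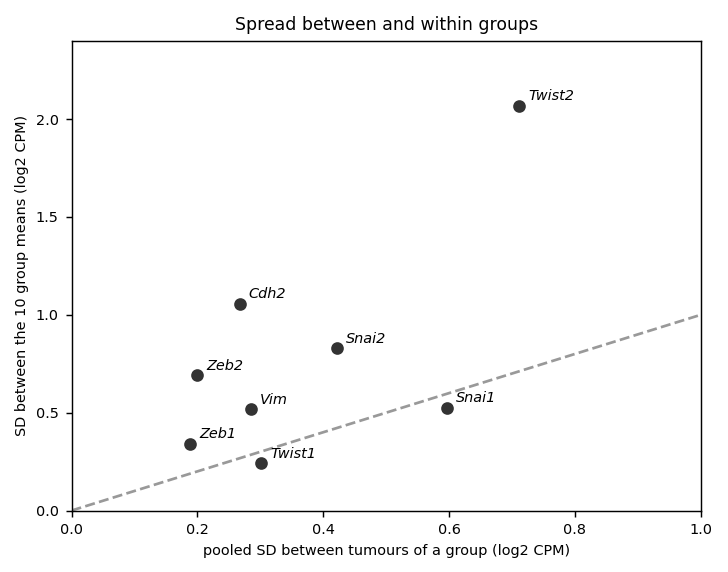
SD between the 10 group means against the pooled SD between tumours of a group, both in log2 CPM, for the 8 tested genes; the dashed line marks equal values. Twist2 has the widest spread between groups (2.07), and Twist1 and Snai1 lie below the line.

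Over the 10 group means of log2 CPM, the highest values among all pairs were Zeb2 with Twist1 (Pearson r = 0.82), Zeb1 with Twist2 (0.73) and Twist2 with Snai1 (0.71). The lowest was Zeb2 with Vim, which varied in opposite directions (-0.56), while Cdh2 and Twist2 each had an r of 0.56 with Vim. Zeb1 and Zeb2 had an r of 0.11, and Snai1 and Snai2 of -0.32. These values describe 10 points, in 5 lines, and share the libraries. Among all tested genes of at least 5 CPM, those most like each gene over the 10 group means were E030022I16Rik for Zeb2 (0.99), Mapkap1 for Zeb1 (0.95), Gm37298 for Twist1 (0.96) and Spred1 for Twist2 (0.96). They were Bivm for Snai1 (0.95), Zfp120 for Snai2 (0.94), Sez6 for Cdh2 (0.96) and Raph1 for Vim (0.95). Each is the highest of many r values over only 10 points, so its size is in part a product of selection.

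Of 24 other transition factors, 16 were tested. Under RAFi/MEKi 5 were called in 2646TN (1 higher, 4 lower), 9 in 2646R (2 higher, 7 lower), 6 in 14559TN (2 higher, 4 lower), 8 in 13TN (3 higher, 5 lower) and none in 14559R. Of all tested genes 3.94% were called in 2646TN, 19.9% in 2646R, 28.4% in 14559TN, 31.0% in 13TN and 0.196% in 14559R. The median log2 response of the 16 ran from -0.28 in 2646R to 0.32 in 14559R. Hmga2, a chromatin protein of embryonic cells, fell in 14559TN from 2427 ± 121 to 602 ± 54.4 CPM (log2 -2.01 ± 0.17, edgeR adjusted p = 1.26e-10). It fell in 13TN from 2640 ± 626 to 880 ± 94.7 CPM (log2 -1.58 ± 0.17, adjusted p = 5.41e-09). Prrx1, a homeobox factor of mesenchyme, rose in 14559TN from 762 ± 60.7 to 1657 ± 116 CPM (log2 1.12 ± 0.13, adjusted p = 6.24e-08). Sox4 and Sox9, SOX factors of progenitor cells, fell in 2646TN and 2646R, and Sox4 fell also in 13TN, from 607 ± 69.1 to 240.0 ± 28.1 CPM. In 2646R Sox9 went from 2161 ± 311 to 753 ± 92.2 CPM and Sox4 from 1901 ± 381 to 781 ± 88.3 CPM.

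Epithelial genes were nearly silent: of 30, 25 did not pass the filter and 8 had 0 counts in all 30 libraries. Epcam, a surface protein of epithelia, summed to 2 counts, and Esrp1, an epithelial splicing factor, to 1. Of the 5 tested, 0 to 2 were called in each line under the drug, and the median log2 response ran from -1.09 in 14559TN to 0.24 in 14559R. Of all tested genes 0.196% (14559R) to 31.0% (13TN) were called under the drug.

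Of 26 mesenchymal effector genes (matrix, integrin, protease, cytoskeleton, surface and other genes) 25 were tested. Their calls under RAFi/MEKi were mostly lower in 14559TN (9 of 11) and 13TN (11 of 13). Of all tested genes 28.4% were called in 14559TN and 31.0% in 13TN, with 2124 of 3771 and 2311 of 4120 lower. In 2646TN 4 of 6 called effectors were higher, in 2646R 4 of 9, and in 14559R none was called. Among all called genes 225 of 523 were higher in 2646TN and 1289 of 2647 in 2646R. The median log2 response of the 25 ran from -0.53 in 13TN to 0.17 in 2646TN. S100a4, a calcium-binding protein of motile cells, fell in 14559TN from 6522 ± 148 to 562 ± 78.8 CPM (log2 -3.54 ± 0.37, edgeR adjusted p = 2.6e-07). S100a4 rose in 2646TN from 1220 ± 419 to 2938 ± 293 CPM (log2 1.27 ± 0.34, adjusted p = 0.0375). Plaur, the urokinase receptor, fell in 14559TN from 21.7 ± 2.94 to 1.35 ± 0.684 CPM and in 13TN from 34.4 ± 12.5 to 2.92 ± 0.868 CPM. Myl9, a myosin light chain, rose in 4 lines, in 2646TN from 9.24 ± 0.367 to 88.2 ± 9.58 CPM. Untreated 2646R was above untreated 2646TN in 15 of its 17 called effectors, among them Pdpn (160 ± 50.2 against 3.94 ± 4.31 CPM) and Itgb3 (39.7 ± 5.90 against 2.30 ± 0.645 CPM). Among all called genes untreated 2646R was above untreated 2646TN in 2431 of 4869. Treated 14559R was above treated 14559TN in 18 of 21 called effectors, and in 3539 of 6561 among all called genes.

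Markers of other cells that express these genes were measured in the same libraries. Fibroblast markers, 11 of 11 tested, summed to 4237 to 16881 CPM as group means, and the mean was higher in the treated group of each line. The sum was mostly collagen. The highest group means were 9616 CPM for Col1a2, 5444 for Col3a1, 3971 for Col1a1 and 2476 for Dcn. The other markers had highest group means of 408 CPM for Pdgfra, 268 for Pdgfrb, 96.2 for Fap, 92.5 for Lum and 54.9 for Dpt. Thy1 reached at most 2.98 CPM and Pi16 7.71 CPM. In 14559TN the sum was 9421 ± 518 CPM untreated and 13109 ± 3070 CPM treated, and in 13TN 4237 ± 515 and 8917 ± 531 CPM. Vim was called lower in those treated groups. Endothelial markers, 7 of 10 tested, summed to 132 ± 6.14 CPM untreated and 201 ± 8.48 CPM treated in 14559TN. In 13TN they summed to 137 ± 38.6 and 248 ± 48.5 CPM, and Zeb2 and Snai2 were called higher under the drug in both these lines. The endothelial sum also went from 69.3 ± 11.1 to 112 ± 12.0 CPM in 2646R, where Zeb2 was not called and Snai2 was called lower. It went from 103 ± 15.8 to 121 ± 12.1 CPM in 14559R and from 161 ± 9.65 to 154 ± 44.1 CPM in 2646TN. Neither gene was called in 14559R or 2646TN. Most of the sum in treated 14559TN was Eng, at 179 ± 7.91 CPM, and Pecam1 was at most 6.68 CPM in a tumour of that group.

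Macrophage markers, 12 of 14 tested, summed to 234 ± 55.8 CPM in untreated 2646TN, 50.7 ± 23.9 CPM in treated 2646TN and 35.2 to 122 CPM elsewhere. Keratinocyte markers, of which Cdh1 is one, summed to 17.4 to 29.2 CPM, with 2 of 13 tested and Krt1, Lor and Dsg3 at 0 in all 10 groups. Pericyte and smooth muscle markers, 4 of 9 tested, summed to 58.6 ± 11.2 CPM untreated and 469 ± 238 CPM treated in 2646TN. In 2646R they summed to 331 ± 19.2 and 845 ± 149 CPM, and in 13TN to 173 ± 10.5 and 97.9 ± 33.7 CPM. The means were 216 and 213 CPM in 14559TN and 119 and 146 CPM in 14559R. The part of these cells in the results above was not tested.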

How the data were processed

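The submitters' processing notes name GRCm38, the aligner STAR 2.6.0c and the counter featureCounts 1.6.2. The deposited values are whole-number counts of reads per gene, and per the file headers counting was stranded, in paired mode. Genes were matched by symbol. Counts were tested in R 4.3.3 with edgeR 4.0.16: filterByExpr by group left 13286 genes, libraries were scaled by TMM, and 1 robust quasi-likelihood fit covered the 10 groups, with 20 residual degrees of freedom and a biological coefficient of variation of 18.2%. The 14 pairwise contrasts and 2 joint tests of 4 contrasts were adjusted over all tested genes by Benjamini-Hochberg, and a call is a value under 0.05. The fit was tested on simulated data. Each SE was derived from F as the size of the log2 difference divided by its root. A list's genes were named if called, at 5 CPM or more in the higher group, and among the 3 largest changes of a comparison. A subset of these is given. Likeness used log2 CPM with a prior count of 2. Alternatives were median-of-ratios factors, no filter, the compared groups alone, DESeq2 1.42.0, and each library left out. The genes and lists were chosen with earlier results of these data known.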

Additional observations from a re-analysis of the deposited data

Results flagged for a closer look

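The response to RAFi/MEKi differed between the lines of a pair for Snai2 in the 2646 pair and for Zeb2, Snai2 and Vim in the 14559 pair, by a test of the difference itself. On the log2 scale, R minus TN, the difference was -2.60 for Snai2 in the 2646 pair, where 2646R fell from 37.7 to 11.0 CPM and 2646TN went from 19.2 to 34.0 CPM. In the 14559 pair it was -2.05 for Snai2, -0.90 for Zeb2 and 1.22 for Vim. Each of these 4 calls was kept under every alternative run.

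Over all 5 lines, a joint edgeR test of the responses gave an adjusted p of 0.0115 for Zeb1, 2.49e-04 for Zeb2, 2.45e-06 for Snai2, 0.0019 for Cdh2 and 6.44e-04 for Vim. The log2 responses ran from -0.31 (13TN) to 0.56 (2646TN) for Zeb1, and from -1.57 (13TN) to 0.18 (2646TN) for Cdh2. Groups of 3 tumours are too small for a check of single tumours far from the others.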

How the results depend on the processing

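No paired analysis was possible because the titles give each tumour a code of its own. Of 112 log2 values, 36 were called: none turned sign under any alternative run, 30 stayed called under all of them, and 6 lost the call at least once, with values given above. Of the 76 not called, 15 were called under at least 1 alternative, mostly without the filter, and 22 turned sign. The number of called genes among the 10 moved by over 1.5 times in 5 comparisons. In the response of 2646TN it was 1, with 2 without the filter, 0 with the compared groups alone and 0 to 1 on leaving out a library. In the response of 2646R it was 1, with 2 without the filter and 2 with the compared groups alone. In treated 2646R against 2646TN it was 3, with 5 without the filter. In untreated 14559TN against 13TN it was 1, with 3 without the filter, 2 with the compared groups alone, 2 with DESeq2 and 1 to 2 on leaving out a library, the 2 coming without 13TN replicate 3. In the difference of responses of the 2646 pair it was 1, with 2 without the filter and 1 to 2 on leaving out a library, the 2 coming without treated 2646TN replicate 3. Everywhere else it moved by at most 1 gene: on leaving out a library it was 3 to 5 in the response of 13TN, 4 to 5 in untreated 2646R against 2646TN and in treated 14559R against 14559TN, and 2 to 3 in untreated 2646TN against 13TN. In untreated 14559R against 14559TN it was 2, and 3 without the filter or with the compared groups alone. The cause was not tested.

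The values that turned sign were not called in the fit reported above. The Cdh2 difference of responses in the 2646 pair, -0.02, was 0.0156 with median-of-ratios factors, 0.0251 without the filter, 0.00494 with the compared groups alone and 0.0153 with DESeq2. On leaving out a library it ran from -0.18 to 0.23. The other ranges on leaving out a library, in log2, were as follows. In responses, Twist2 ran from -2.42 to 0.72 in 2646TN, from -0.51 to 0.85 in 2646R and from -0.55 to 0.43 in 14559R. Snai1 ran from -0.50 to 0.00848 in 2646R and from -0.0179 to 0.62 in 13TN. Zeb2 in 2646R ran from -0.16 to 0.13, Zeb1 in 14559TN from -0.19 to 0.0238, Cdh2 in 14559R from -0.18 to 0.19 and Vim in 14559R from -0.10 to 0.0216. In treated 2646R against 2646TN, Twist1 ran from -0.0877 to 0.44 and Vim from -0.37 to 0.0964. In treated 14559R against 14559TN, Zeb1 ran from -0.0507 to 0.27 and Cdh2 from -0.0393 to 0.14. Snai1 ran from -0.49 to 0.18 in untreated 14559R against 14559TN and from -0.14 to 0.37 in untreated 14559TN against 13TN. Zeb2 in untreated 2646TN against 13TN ran from -0.0519 to 0.11. For the difference of responses in the 2646 pair, Zeb2 ran from -0.28 to 0.00372, Twist2 from -0.76 to 2.38 and Snai1 from -0.0359 to 0.78. In the 14559 pair Twist1 ran from -0.21 to 0.11 and Cdh2 from -0.33 to 0.0314.

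With 3 tumours in a group, and 10 counts of Twist2 in untreated and 5 in treated 2646TN, depth limits Twist2, Cdh1 and Cdh11 most.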
